A study of Homo sapiens with 9 samples.

Results

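The 10 genes described here encode proteins that start mitophagy or mark mitochondria for it: the kinases PINK1 and ULK1, the receptors BNIP3, BNIP3L, FUNDC1 and PHB2, and the cargo adaptors SQSTM1, NBR1, OPTN and CALCOCO2. They were taken by symbol from the deposited table of counts per gene, and are 10 of its 62703 genes. All 10 had enough counts to be tested. RNA was sequenced in 9 libraries of HK-2, a papillomavirus-transformed line from human kidney cortex, in 3 groups of 3. Untreated cells (libraries 1, 2 and 3) had 12 h without serum and 5% serum, conditions that the labels give for every group. Cells of the aristolochic acid group (1, 4 and 6) were in addition exposed for 48 h to this nephrotoxic and mutagenic plant compound at 5 µg/ml. Cells of the MYDGF group (1, 3 and 4) had the same exposure and an adenovirus encoding MYDGF, a secreted growth factor.

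Neither a control vector nor a vehicle is named, so MYDGF and the adenovirus cannot be told apart, nor can the toxin and its solvent or the time in culture. All 9 libraries come from 1 cell line, and separate cultures are not stated; the p-values describe library-to-library spread, which may be technical. The treatment labels of untreated 2 and 3 and of MYDGF 3 and 4 read HK-3 or HK-4, while the cell line entry reads HK-2. Libraries held 10876572 to 14254786 counts, and the 10 genes took 0.137 to 0.184% of them. The level of MYDGF, in CPM (counts relative to the TMM-scaled library total), ran from 122.8 to 130.7 without treatment, from 74.2 to 104.9 under aristolochic acid alone and from 510.2 to 662.9 in the libraries labelled with MYDGF. Of 10 proximal tubule markers, 6 were under 1 CPM in every group, among them LRP2, SLC34A1 and HNF4A. The other 4 had untreated means of 2.17 (CUBN), 1.24 (AQP1), 4.58 (GGT1) and 3.88 CPM (ANPEP). These markers thus show little of a proximal tubule identity. The 10 summed to 12.3 to 12.5 CPM per untreated library, 22.2 to 33.2 per aristolochic acid library and to values between these, from 17.2 upwards, per MYDGF library. Of 7 epithelial markers, PAX8 and PAX2 were under 1 CPM in every group, and their sum ran from 1080.8 to 1121.7, from 1576.2 to 1711.3 and from 1391.2 to 1414.1 CPM in the same order. Markers of other kidney cells summed to 27.0 to 29.2, 29.4 to 33.5 and 21.7 to 25.4 CPM. Single markers differed from these sums: with aristolochic acid the epithelial cadherin CDH1 changed by -1.13 on the log2 scale, the endothelial marker PECAM1 by 3.74 (to 7.92 CPM) and the macrophage marker CD68 by -1.46. The part of these markers in the results was not tested.

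Mitophagy is the removal of mitochondria by autophagy. In the ubiquitin-dependent route, PINK1 accumulates on depolarised mitochondria and phosphorylates ubiquitin there, and adaptors such as OPTN and CALCOCO2 tie the ubiquitin coat to LC3 on the growing autophagosome. In the receptor route, proteins of the outer membrane such as BNIP3, BNIP3L and FUNDC1 bind LC3 themselves, and BNIP3 and BNIP3L are known targets of hypoxia-inducible factor (HIF). Proximal tubule cells are rich in mitochondria, and both routes are known to be active in injured tubules.

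The first comparison of the design asks what the toxin changes. With aristolochic acid, 7 of the 10 genes passed the test against untreated cells. PINK1, BNIP3L, BNIP3, ULK1 and OPTN fell, and NBR1 and SQSTM1 rose. The share of 7 in 10 stood against 59.0% of all 18267 genes tested, 29.7% higher and 29.3% lower, so the count of calls was near the background. The levels of the groups did not overlap for 6 of the 10, with 1 higher and 5 lower, against 65.9% of all genes. The median log2 fold change of the 10 was -0.23, against -0.01 over all genes, and their median size of change was 0.30 against 0.54. The calls of SQSTM1, OPTN and ULK1 were lost in several other settings, described below. The count of calls was 4 without untreated 3 and 4 without aristolochic acid 6. All genes called were then 5331 higher and 4764 lower of 18974, and 5267 higher and 4685 lower of 18692. Calls are from the quasi-likelihood test of edgeR at an adjusted p under 0.05, and each log2 fold change has its standard error (SE) beside it.

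The second asks what MYDGF changes in exposed cells. When MYDGF was added to aristolochic acid, PINK1, BNIP3 and NBR1 rose and OPTN fell against aristolochic acid alone. These 4 of 10 stood beside 29.4% of all genes called, 14.7% in each direction. Levels did not overlap for 5 of the 10, with 3 higher and 2 lower, against 44.3% of all genes, and the median log2 fold change was -0.06 against 0.01. Against untreated cells, the MYDGF group had NBR1 higher and PINK1, BNIP3L, OPTN and ULK1 lower. That is 5 of 10 beside 51.1% of all genes (26.8% higher, 24.3% lower), with levels that did not overlap for 6 of 10 beside 63.9%. The comparisons share libraries, so the values of each gene are set side by side and no agreement between comparisons is drawn from them. In a bulk sample, fewer cells that express a gene and less of its RNA per cell cannot be told apart.

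**Figure D1:**
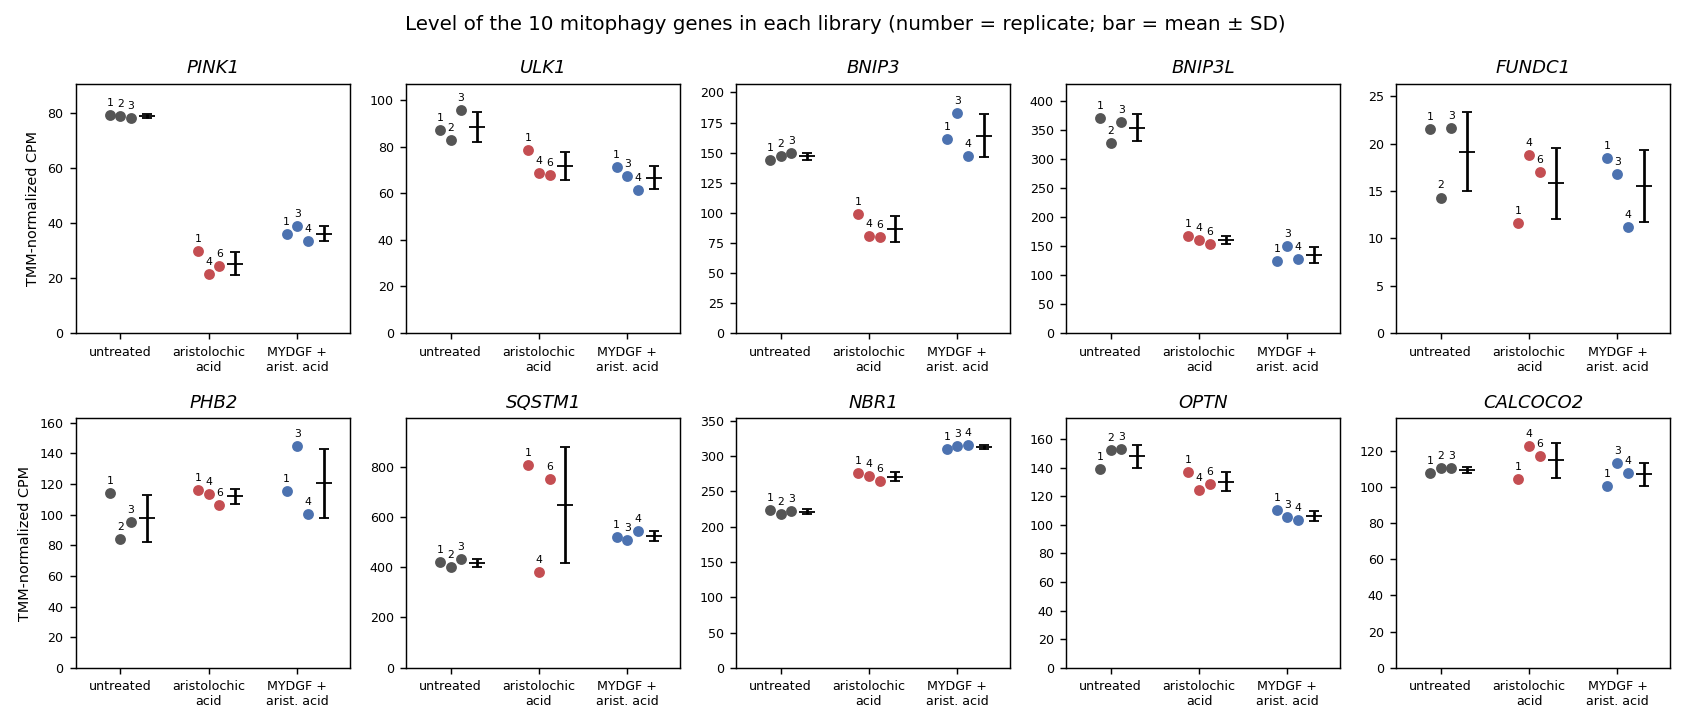
Level of each of the 10 genes (y axis, CPM) in each library (points, numbered as in the labels) by group (x axis), with the mean and SD over 3 libraries beside them. PINK1 and BNIP3L are lower in both treated groups, BNIP3 with MYDGF lies near its untreated level, and SQSTM1 has 1 low library (382.6 CPM) in the aristolochic acid group.

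**Figure D2:**
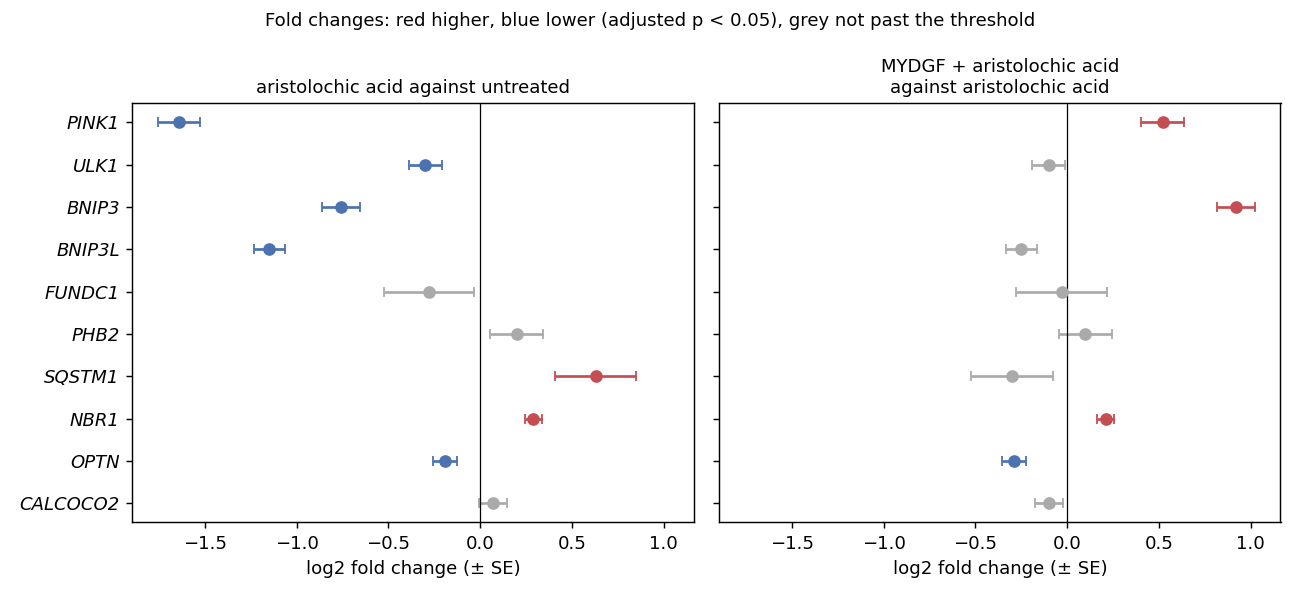
Log2 fold change (x axis) of each gene (y axis) with its SE, for aristolochic acid against untreated (left) and MYDGF with aristolochic acid against aristolochic acid (right), red where higher, blue where lower and grey where the test was not passed. PINK1 has the lowest value for aristolochic acid against untreated, -1.64, and BNIP3 the highest for MYDGF against aristolochic acid, 0.92.

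Levels of different genes were set side by side per length, as CPM per kilobase of exon. In untreated cells BNIP3L was highest at 82.2 ± 5.51 (SD, n = 3), followed by SQSTM1 at 54.5 ± 2.17 and PHB2 at 39.1 ± 6.09 CPM per kilobase. OPTN (28.8 ± 1.55), BNIP3 (27.6 ± 0.484), NBR1 (26.3 ± 0.399) and PINK1 (16.3 ± 0.149) came next. FUNDC1 (13.7 ± 3.0), CALCOCO2 (13.1 ± 0.196) and ULK1 (11.6 ± 0.855) were lowest. Among neighbours in this order, OPTN and BNIP3, and FUNDC1 and CALCOCO2, overlapped between libraries. With aristolochic acid, BNIP3L came after SQSTM1 and PHB2 at 37.1 ± 1.67, and PINK1 was lowest at 5.22 ± 0.871. With MYDGF the order was led by SQSTM1 (68.5 ± 2.42), PHB2 (48.2 ± 9.06) and NBR1 (37.3 ± 0.372), BNIP3L and BNIP3 stood together at 31.2 ± 3.19 and 30.8 ± 3.38, and PINK1 was again lowest at 7.49 ± 0.556. The deposited FPKM values give PHB2 the last place in untreated cells, at 6.61 ± 1.04. They imply a length of 14627 bases for it, while the gene spans 5454 and its exons 2499, so they were not used for this order. In the aristolochic acid group, CALCOCO2 and FUNDC1, and FUNDC1 and ULK1, were neighbours that overlapped. In the MYDGF group these overlapped too, and so did BNIP3L and BNIP3. Other places also depend on the length used. With FPKM, the MYDGF group had BNIP3 at 30.1 ± 3.33, BNIP3L at 22.2 ± 2.24 and PHB2 at 8.21 ± 1.55.

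PINK1 (ENSG00000158828, chromosome 1, 20633458 to 20651511, plus strand) is the kinase that marks damaged mitochondria. Untreated libraries gave 79.6, 79.1 and 78.2 CPM, aristolochic acid libraries 29.8, 21.5 and 24.5, and MYDGF libraries 36.2, 38.9 and 33.5. Every aristolochic acid library was below every untreated one, and the MYDGF libraries lay between the groups without touching either. PINK1 fell by 1.64 on the log2 scale with aristolochic acid, to 32.0% of the untreated level (SE 0.116, n = 3 per group, edgeR adjusted p = 8.63e-06). With MYDGF it was 0.52 higher than with aristolochic acid alone (SE 0.116, adjusted p = 0.0105), and at 45.9% of the untreated level (log2 fold change -1.12, SE 0.114, adjusted p = 6.6e-05).

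Reads at this locus need care. PINK1-AS, a transcript of the opposite strand, shares 1907 of the 4836 exonic bases of PINK1, and the sources used here do not give the strand setting of the counting. For PINK1-AS the untreated libraries gave 16.5, 15.4 and 16.6 CPM, the aristolochic acid libraries 19.8, 17.7 and 20.3, and the MYDGF libraries 13.9, 15.4 and 15.3. Its log2 fold changes had the opposite sign to those of PINK1, 0.25 with aristolochic acid (SE 0.099, adjusted p = 0.0502) and -0.38 with MYDGF added (SE 0.0991, adjusted p = 0.0206). The latter did not pass without aristolochic acid 6, MYDGF 1 or MYDGF 3. PINK1 counts per PINK1-AS count were 4.83, 5.15 and 4.7 for untreated libraries, 1.5, 1.21 and 1.2 for aristolochic acid and 2.61, 2.53 and 2.18 for MYDGF. The groups did not overlap (exact permutation test, two-sided p = 0.1 for aristolochic acid against untreated and for MYDGF against aristolochic acid, the smallest that 3 against 3 allows). With the counts of both genes added together, the change with aristolochic acid was -1.09 (adjusted p = 1.67e-05), and the difference with MYDGF was 0.20 and no longer passed (adjusted p = 0.129).

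ULK1 (ENSG00000177169, chromosome 12, 131894622 to 131923150, plus strand), the kinase that starts autophagosome formation, gave 87.3, 82.8 and 95.6 CPM in the untreated libraries. The aristolochic acid libraries gave 78.7, 68.8 and 67.7 CPM, and the MYDGF libraries 71.1, 67.5 and 61.5. Treated libraries were all below the untreated ones, and the treated groups overlapped. The change with aristolochic acid was -0.30 (SE 0.0902, edgeR adjusted p = 0.0159). It did not pass without untreated 3 (adjusted p = 0.0732), aristolochic acid 4 (0.0509) or aristolochic acid 6 (0.0816). Against untreated cells the MYDGF group was at -0.41 (adjusted p = 0.00457), and against aristolochic acid at -0.10 (SE 0.0904, adjusted p = 0.417).

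BNIP3 (ENSG00000176171, chromosome 10, 131967684 to 131981967, minus strand) and BNIP3L (ENSG00000104765, chromosome 8, 26383054 to 26505636, plus strand) encode related receptors of the outer mitochondrial membrane. For BNIP3, untreated libraries gave 144.1, 147.1 and 149.3 CPM, aristolochic acid libraries 99.3, 80.8 and 79.6, and MYDGF libraries 161.3, 183.1 and 147.4. The aristolochic acid libraries were below all others, and the MYDGF libraries overlapped the untreated ones. BNIP3 fell by 0.76 with aristolochic acid (SE 0.104, n = 3 per group, edgeR adjusted p = 0.00023) and rose by 0.92 when MYDGF was added (SE 0.104, adjusted p = 0.000909). The MYDGF group differed from untreated cells by 0.16 (SE 0.103, adjusted p = 0.226).

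BNIP3L, known for clearing mitochondria from maturing red cells, gave 371.0, 326.9 and 364.2 CPM in untreated libraries, 167.0, 159.5 and 152.7 in aristolochic acid libraries, and 124.5, 150.0 and 128.2 in MYDGF libraries. No groups overlapped, and the MYDGF libraries were the lowest. BNIP3L fell by 1.15 with aristolochic acid (SE 0.0849, edgeR adjusted p = 1.04e-05) and was at 37.9% of the untreated level with MYDGF (-1.40, SE 0.0854, adjusted p = 6.67e-06). The difference between MYDGF and aristolochic acid was -0.25 (SE 0.0843, adjusted p = 0.0506) and did not pass. It did pass with library totals in place of the TMM scaling (-0.26, adjusted p = 0.0425), with DESeq2 size factors (-0.29, adjusted p = 0.0296), by the Wald test of DESeq2 (-0.29, adjusted p = 0.0158) and without MYDGF 3 (-0.33, adjusted p = 0.0249). PNMA2, a gene of the opposite strand that shares 330 of the 4307 exonic bases of BNIP3L, changed by -0.79 with aristolochic acid and by -0.14 with MYDGF added.

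The count of BNIP3 per count of BNIP3L compares the receptors within a library. It was 0.389, 0.45 and 0.41 in untreated libraries, 0.594, 0.507 and 0.521 in aristolochic acid libraries, and 1.3, 1.22 and 1.15 in MYDGF libraries. The groups did not overlap, and the means were 0.416 ± 0.0312, 0.541 ± 0.0469 and 1.22 ± 0.0726 (SD, n = 3). The exact permutation test gave p = 0.1 (two-sided) for aristolochic acid against untreated and for MYDGF against aristolochic acid, which is the smallest that 3 against 3 allows. In the MYDGF group, BNIP3 counts thus outnumbered those of BNIP3L in every library, while in the other groups BNIP3L counts were the larger. Counts are not scaled by length, so a ratio above 1 does not show which receptor had more RNA. In the MYDGF group BNIP3L and BNIP3 were at 31.2 and 30.8 CPM per kilobase of exon, and at 22.2 and 30.1 FPKM. Their order thus depends on the length used. BNIP3 has a processed copy, BNIP3P1, to which reads may be assigned by mistake. The count of BNIP3P1 per count of BNIP3 was 0.174 to 0.21 in all 9 libraries, and with the 2 genes added together the changes of BNIP3 were -0.76 and 0.91.

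**Figure D3:**
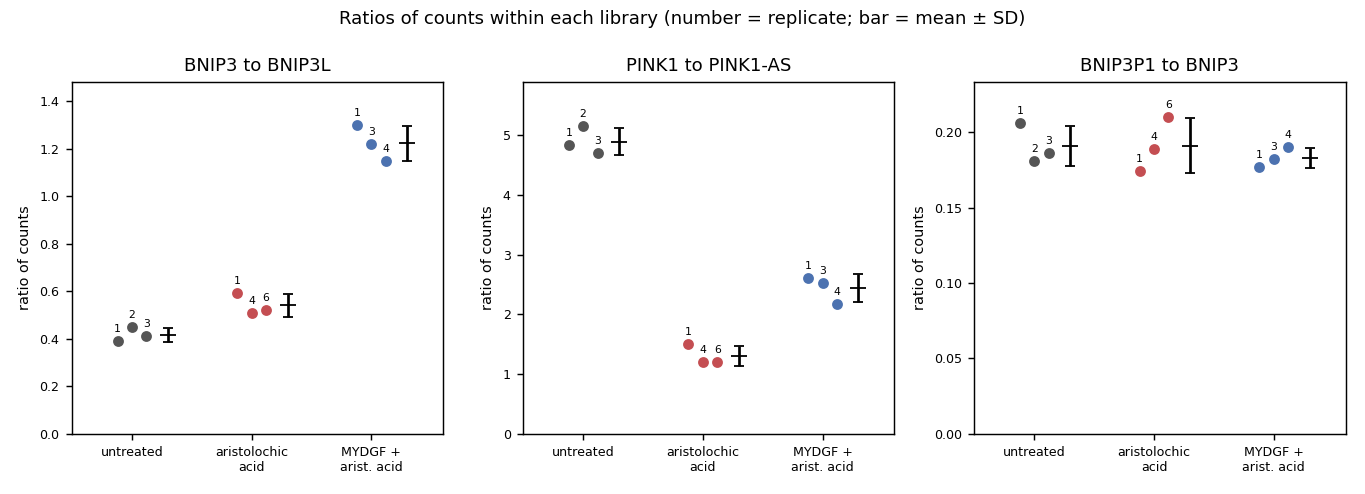
Ratio of counts (y axis, linear, from 0) in each library (numbered points) by group (x axis), with the mean and SD over 3 libraries, for BNIP3 to BNIP3L, PINK1 to PINK1-AS and BNIP3P1 to BNIP3. BNIP3 to BNIP3L is above 1 in the 3 MYDGF libraries and below 1 in the other 6, and BNIP3P1 to BNIP3 stays between 0.174 and 0.21. Counts are not scaled by gene length.

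Because BNIP3 is a known HIF target, the promoter sequences of the members were searched for the HIF core letters ACGTG, on both strands. RefSeq windows (GRCh38.p14, 250 bases before to 50 after each start, several windows for some genes) matched 8 of the 10 genes, and not PINK1 or BNIP3L. ACGTG was present in 2 of the 8, BNIP3 and CALCOCO2, against 24.9% of 27305 genes. The letters GCGTG were present in 3 of 8 (BNIP3, NBR1 and ULK1) against 40.6%, and CACGTG, which overlaps ACGTG, in 1 of 8 (BNIP3) against 8.8%. With 8 genes these shares are near the background, and a match is a description of letters, not a site. Both stretches with ACGTG are shown, that of BNIP3, which moved in both directions, and that of CALCOCO2, which passed in no comparison. Capitals mark ACGTG on either strand. Each is cut at the start the table gives, so that it holds upstream bases alone. BNIP3 is chr10:131981968-131982173, read on the minus strand, and CALCOCO2 is chr17:48830785-48831017, on the plus strand.
BNIP3: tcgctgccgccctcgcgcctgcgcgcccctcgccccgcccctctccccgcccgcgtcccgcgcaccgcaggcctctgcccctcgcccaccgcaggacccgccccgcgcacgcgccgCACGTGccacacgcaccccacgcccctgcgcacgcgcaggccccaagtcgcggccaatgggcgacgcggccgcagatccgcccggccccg
CALCOCO2: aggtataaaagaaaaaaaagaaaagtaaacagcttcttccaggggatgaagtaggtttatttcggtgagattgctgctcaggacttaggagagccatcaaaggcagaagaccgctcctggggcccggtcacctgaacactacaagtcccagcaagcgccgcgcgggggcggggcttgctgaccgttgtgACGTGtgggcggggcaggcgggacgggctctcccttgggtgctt
In BNIP3 the capitals spell CACGTG, in which ACGTG can be read on both strands, 89 and 90 bases upstream of the start. In CALCOCO2 the match lies 44 bases upstream.

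FUNDC1 and PHB2 did not pass in any comparison. FUNDC1 (ENSG00000069509, chromosome X, 44523639 to 44542859, minus strand), a receptor of the outer membrane known for hypoxic mitophagy, gave 21.5, 14.3 and 21.6 CPM in untreated libraries, 11.6, 18.8 and 17.0 in aristolochic acid libraries, and 18.5, 16.8 and 11.2 in MYDGF libraries. All groups overlapped. Its changes were -0.28 with aristolochic acid (SE 0.246, edgeR adjusted p = 0.36) and -0.03 with MYDGF added (SE 0.247, adjusted p = 0.944). FUNDC1 had 143 to 285 counts per library, the fewest of the 10, and the largest SE. PHB2 (ENSG00000215021, chromosome 12, 6965327 to 6970780, minus strand), an inner membrane protein that binds LC3 when the outer membrane breaks, was at 114.0, 83.9 and 95.0 CPM, then 116.0, 113.6 and 106.5, then 115.7, 145.0 and 100.5 in the same order of groups. The groups overlapped, and its changes were 0.20 (SE 0.144, adjusted p = 0.261) and 0.10 (SE 0.144, adjusted p = 0.625). Against untreated cells the MYDGF group was at 0.30 (adjusted p = 0.107), and this passed without untreated 1 (0.42, adjusted p = 0.0481) and without MYDGF 4 (0.43, adjusted p = 0.0366).

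Of the 4 adaptors, NBR1 and SQSTM1 rose with aristolochic acid, OPTN fell and CALCOCO2 did not pass. NBR1 (ENSG00000188554, chromosome 17, 43170481 to 43211689, plus strand), which binds ubiquitin and LC3, gave 223.8, 217.4 and 222.2 CPM in untreated libraries, 276.4, 272.2 and 264.5 in aristolochic acid libraries, and 310.1, 314.0 and 316.2 in MYDGF libraries. The groups were apart, in the order untreated, aristolochic acid, MYDGF. NBR1 rose by 0.29 with aristolochic acid (SE 0.0462, n = 3 per group, edgeR adjusted p = 0.000517) and by a further 0.21 with MYDGF (SE 0.0461, adjusted p = 0.00987). OPTN (ENSG00000123240, chromosome 10, 13099449 to 13138308, plus strand), an adaptor of the PINK1 route, was at 138.7, 152.2 and 152.8 CPM, then 137.2, 124.0 and 128.7, then 110.0, 105.3 and 103.0. Its groups were also apart, and in the reverse order. OPTN changed by -0.19 with aristolochic acid (SE 0.0664, adjusted p = 0.0356) and by -0.29 with MYDGF added (SE 0.0666, adjusted p = 0.0114), and was at 71.8% of the untreated level in the MYDGF group. The first of these did not pass under 12 of 15 other settings, where the log2 fold change ran from -0.18 to -0.10. Those include leaving out untreated 2 or 3, aristolochic acid 4 or 6, or any of the MYDGF libraries.

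SQSTM1 (ENSG00000161011, chromosome 5, 179806398 to 179838078, plus strand), which carries ubiquitinated cargo and is itself degraded by autophagy, gave 420.4, 399.1 and 431.8 CPM in untreated libraries. The aristolochic acid libraries gave 805.7, 382.6 and 751.9 CPM, and the MYDGF libraries 519.8, 508.4 and 544.6. Aristolochic acid 4 was below every untreated library, and the other 2 were the highest of all 9. SQSTM1 rose by 0.63 with aristolochic acid (SE 0.222, edgeR adjusted p = 0.0332), the largest SE among the called members. That call was lost in 8 of 15 other settings, among them without a filter on low counts (adjusted p = 0.0563), with the 6 libraries alone (0.058), without untreated 1, 2 or 3, or without aristolochic acid 1 (0.46, adjusted p = 0.11) or 6 (0.53, adjusted p = 0.101). Without aristolochic acid 4 the change was 0.90, and the difference between MYDGF and aristolochic acid became -0.57 and passed (adjusted p = 0.0017), where with all libraries it was -0.30 (SE 0.221, adjusted p = 0.336). The MYDGF group was above every untreated library, by 0.33 (SE 0.221, adjusted p = 0.239), a difference that passed without aristolochic acid 4 (adjusted p = 0.0011) or with the 6 libraries alone (adjusted p = 0.00101). SQSTM1 shares 1687 of its 7654 exonic bases with genes of the opposite strand, 1582 of them with MRNIP. MRNIP changed by -1.05 with aristolochic acid and by 0.42 with MYDGF added, and its counts were not added to those of SQSTM1. CALCOCO2 (ENSG00000136436, chromosome 17, 48831018 to 48866522, plus strand), an adaptor of the PINK1 route, was at 107.5, 110.4 and 110.2 CPM, then 104.2, 122.8 and 116.8, then 100.2, 113.0 and 107.8. All groups overlapped, with changes of 0.07 (adjusted p = 0.467), -0.10 (adjusted p = 0.361) and, for MYDGF against untreated, -0.03 (adjusted p = 0.752).

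Other genes of the process were read from fixed lists, for context. Of 27 further mitophagy factors tested, 8 rose and 9 fell with aristolochic acid, 63.0% called beside 59.0% of all genes, and their median log2 fold change was 0.13 against -0.01. USP15 (0.93, adjusted p = 0.0002), a deubiquitinase, ARIH1 (0.52, adjusted p = 0.000316), a ubiquitin ligase, and AMBRA1 (0.50, adjusted p = 0.00071), an autophagy regulator, led the rises. PGAM5 (-1.17, adjusted p = 1.64e-05), a mitochondrial phosphatase that acts on FUNDC1, and the matrix proteins NIPSNAP1 (-0.83) and NIPSNAP2 (-0.78) led the falls. With MYDGF added, 4 rose and 2 fell (22.2% called, beside 29.4% of all genes), among them PGAM5 (0.46, adjusted p = 0.0081), TOMM7 (0.42, adjusted p = 0.0211), the import subunit that stabilises PINK1, and AMBRA1 (-0.32, adjusted p = 0.0206). These 6 became 2 without aristolochic acid 4, 3 without MYDGF 3 and 2 without MYDGF 4, and the calls of AMBRA1 and TOMM7 were each lost without aristolochic acid 4, aristolochic acid 6 or MYDGF 4, and that of TOMM7 also without MYDGF 3. DESeq2 size factors gave 3 higher and 4 lower, beside 2378 higher and 3028 lower of all 18267 genes. All genes called were 1928 higher and 1813 lower of 18607 without aristolochic acid 4. They were 1826 and 1678 of 19000 without MYDGF 3, and 1799 and 1841 of 18998 without MYDGF 4.

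Of 20 genes that start autophagosomes or regulate the start in either direction, 4 rose and 9 fell with aristolochic acid. That was 65.0% called beside 59.0% of all genes, with a median log2 fold change of -0.16 beside -0.01. WIPI1 (-1.62, adjusted p = 1.87e-05), ATG2A (-0.85) and WIPI2 (-0.67), which act on the growing membrane, led the falls. ATG2B (0.78), ATG101 (0.55) and RPTOR (0.38) led the rises. RPTOR is a regulator that restrains the start, so the counts of rises and falls give no direction for the process. With MYDGF added, 3 fell and none rose, 15.0% called beside 29.4% of all genes. They were ATG13 (-0.29, adjusted p = 0.0193), ATG2B (-0.27, adjusted p = 0.0388) and the Beclin gene BECN1 (-0.23, adjusted p = 0.026). Out of 15 other settings the call of ATG13 was lost in 4, that of ATG2B in 10 and that of BECN1 in 8, and all of them without a filter on low counts or with the 6 libraries alone. The count was 1 to 7 when 1 library was left out. It was 1 without untreated 3, without MYDGF 1, 3 or 4, and 7 without aristolochic acid 1. All genes called were 3152 higher and 3462 lower of 19044 without aristolochic acid 1. They were 2504 and 2562 of 18974 without untreated 3, and 2157 and 2329 of 18985 without MYDGF 1. Among 16 genes of the ATG8 family and its conjugation tested, 4 rose and 3 fell with aristolochic acid (43.8% called, beside 59.0% of all genes). MAP1LC3A was first among the falls (-1.37, adjusted p = 6.72e-05) and ATG5 among the rises (0.91, adjusted p = 9.35e-05). With MYDGF added, MAP1LC3A rose by 0.58 (adjusted p = 0.0196) and ATG5 changed by -0.36 (adjusted p = 0.0301). No other member of that list was called (12.5%, beside 29.4% of all genes). Those 2 calls became 5 without aristolochic acid 1, 1 without aristolochic acid 4 or 6 and 0 without MYDGF 3. In that last setting 3 had an unadjusted p under 0.05 in edgeR. All genes called were 1814 higher and 1959 lower of 18692 without aristolochic acid 6, and are given above for the other settings.

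BNIP3 and BNIP3L were next set beside other HIF targets. Of 19 tested, 7 rose and 9 fell with aristolochic acid, 84.2% called beside 59.0% of all genes. Their median log2 fold change was -0.33 beside -0.01. The count of calls was 12 to 16 when 1 library was left out. Over all genes, the fewest calls in these settings were 4988 higher and 4948 lower of 18607, without aristolochic acid 4. The most were 5997 higher and 5350 lower of 19044, without aristolochic acid 1. ADM (1.33), DDIT4 (0.79) and PFKFB4 (0.78) led the rises, and EGLN3 (-1.18), MXI1 (-0.85) and NDRG1 (-0.84) the falls. The calls of MXI1 and NDRG1 did not hold in every setting. MXI1 was lost without aristolochic acid 6, and NDRG1 without untreated 3 or aristolochic acid 4. With MYDGF added, 4 rose and 3 fell (36.8% called, beside 29.4% of all genes), with PDK1 (0.74, adjusted p = 0.00162), P4HA1 (0.55, adjusted p = 0.00286) and PGK1 (0.48, adjusted p = 0.00476) higher. PDK1 and PGK1 encode enzymes of glucose metabolism and P4HA1 a collagen hydroxylase. EGLN1, which encodes the enzyme that marks HIF for degradation, was lower (-0.95, adjusted p = 0.000142), as were PFKFB4 (-0.61) and DDIT4 (-0.40). The call of DDIT4 was lost without aristolochic acid 1 or 6, or without MYDGF 1 or 4. Against untreated cells, PDK1, P4HA1 and PGK1 were at -0.44, -0.43 and -0.56 with aristolochic acid alone and at 0.31, 0.12 and -0.08 with MYDGF. EGLN1, PFKFB4 and DDIT4 were in the same way at 0.18, 0.78 and 0.79, and at -0.77, 0.17 and 0.39. VEGFA, the other gene that rose with MYDGF added, was at 0.30 and at 0.72. Of these MYDGF values, those of P4HA1, PGK1 and PFKFB4 did not pass. Among 8 transcription factors of the FOXO, TFEB and HIF families, 3 rose and 3 fell with aristolochic acid, 75.0% called beside 59.0% of all genes. FOXO3 (0.96, adjusted p = 2.72e-05), a known activator of BNIP3 transcription, was among the rises. The falls were FOXO4 (-1.83), FOXO1 (-0.60) and EPAS1 (-0.44). With MYDGF added, TFEB (0.99, adjusted p = 0.0059), a master regulator of lysosomal and autophagy genes, and EPAS1 (0.30, adjusted p = 0.014), which encodes a HIF alpha subunit, were higher. These made 25.0% called beside 29.4% of all genes. Against untreated cells, the MYDGF group was at 1.09 for TFEB (edgeR adjusted p = 0.00133) and at -0.14 for EPAS1 (adjusted p = 0.122).

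**Figure D4:**
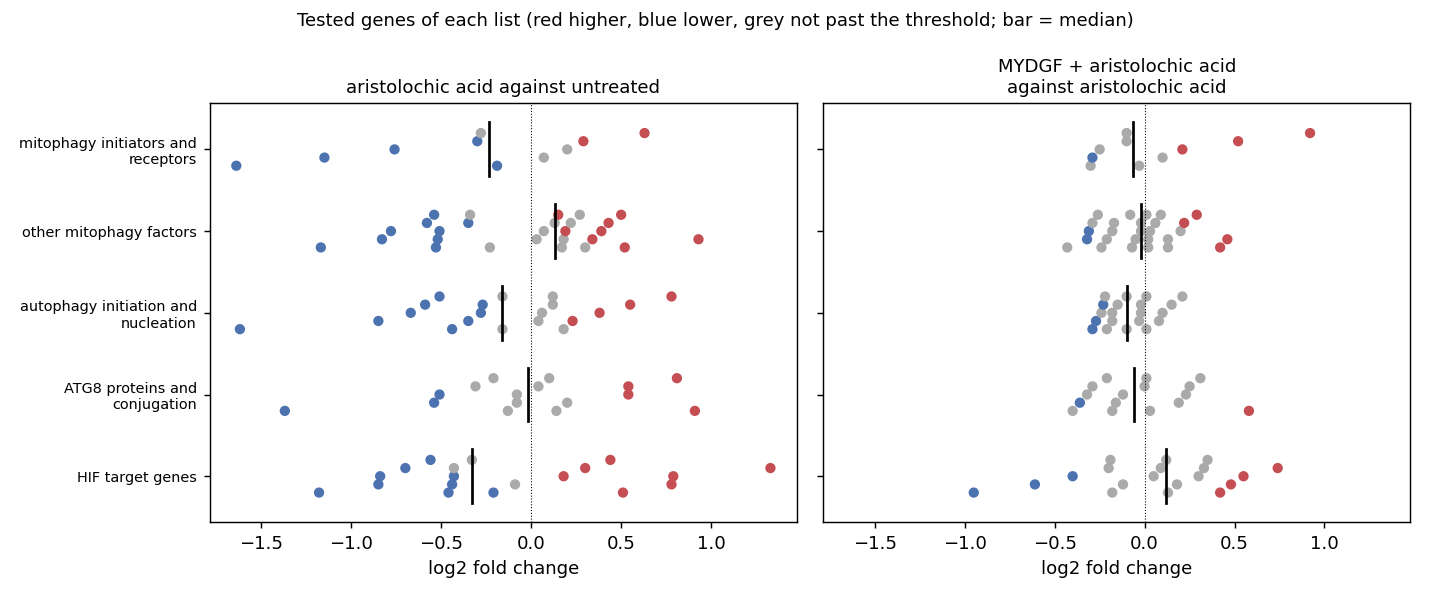
Log2 fold change (x axis) of each tested gene (points) of 5 lists (y axis) for aristolochic acid against untreated (left) and MYDGF with aristolochic acid against aristolochic acid (right), red where called higher, blue where called lower, grey otherwise, with the median of the list as a bar. The 10 members had 2 higher and 5 lower on the left, beside 29.7% higher and 29.3% lower of all genes. On the right they had 3 higher and 1 lower, beside 14.7% of all genes in each direction.

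Genes whose levels were most alike to the members were found by Pearson correlation of log2 CPM over the 9 libraries, as a description in which all points share their groups. For PINK1 the nearest were BTBD2 (r = 0.997) and PGGHG (r = 0.997). For BNIP3L they were RND2 (r = 0.996) and SAA2-SAA4 (r = 0.995), and for BNIP3, CDS1 (r = 0.994) and RPL12P16 (r = 0.988), a pseudogene. These members had the largest range of group mean log2 CPM among the 10, 1.65, 1.40 and 0.92.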

How the data were processed

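RNA of 9 libraries was measured by sequencing. The deposited table holds raw counts per gene, per the file headers, and FPKM values that the authors made from the counts, a gene length and library totals. CASAVA 1.8, HISAT2, SAMtools 1.3.1, edgeR and the mouse build mm10 are named in the submitters' processing notes, while the table lists human genes: 58279 of its IDs were found in GENCODE 29 and 99.8% of these overlapped its GRCh38 position. Positions are those of the table, read as GRCh38. The sources used here give neither the counting tool nor the strand setting. Columns were matched to samples by title.

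Tests used edgeR 4.0.16 under R 4.3.3 (TMM scaling, filterByExpr with minimum count 10 and total 15, quasi-likelihood fit of 3 groups to all 9 libraries, 6 residual degrees of freedom). Adjusted p-values are Benjamini-Hochberg values over 18267 genes, with 0.05 as threshold. The biological coefficient of variation was 16.4%. Libraries of a group differed beyond counting noise (chi-square per degree of freedom 9.72 to 20.13), so none was counted as a repeat run of another. The check cannot tell separate cultures from separate preparations of 1 culture. Lengths for levels per kilobase are the exonic bases of GENCODE 29, in place of the deposited FPKM that had been planned, since these imply lengths above the exons for all 10 genes. DESeq2 1.42.0, other scalings, no filter, a replicate block, the 6 libraries compared, added antisense counts and each library left out were tried. Antisense counts were added for PINK1, NBR1 and PHB2 alone, and not where the opposite gene encodes a protein. Adding counts of BNIP3P1 was chosen after seeing the data. Numbers of the labels are shared in part. Deviations of libraries with the same number correlated at -0.165 to 0.018, and those with different numbers at -0.141 to 0.181. Libraries of the same number were thus not taken as pairs. The 10 genes and the lists were chosen with earlier results of these data known. All 10 are named. From each other list, up to 3 called genes with the largest change in each direction could be named. A further gene that the rule covers is not reported here. For the 3 members with the largest range of group mean, the 2 most alike genes are named. Protein sequences were not used here.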

Additional observations from a re-analysis of the deposited data

How the results depend on the processing

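The replicate block, which treats label numbers as pairs although the check gave no sign of pairing, moved more counts than any other setting. With aristolochic acid against untreated it called 3 of the 10 members, 11 further mitophagy factors, 6 autophagy initiation genes, 3 of the ATG8 list and 4 HIF targets, beside 2652 higher and 2410 lower of all 18267 genes. With MYDGF against aristolochic acid edgeR called 0 genes of each of the 6 lists, beside 8 higher and 6 lower of all genes, where 5, 7, 2, 1, 8 and 2 genes had an unadjusted p under 0.05. With MYDGF against untreated it called 9 further mitophagy factors, 9 autophagy initiation genes and 5 of the ATG8 list. Beside these stood 2909 higher and 2537 lower of all 18267 genes. The member calls lost with the block were NBR1 (log2 fold change with the block 0.30), SQSTM1 (0.56), OPTN (-0.10) and ULK1 (-0.21) with aristolochic acid and PINK1 (0.47), BNIP3 (0.80), NBR1 (0.19) and OPTN (-0.32) with MYDGF added, in a fit with 2 in place of 6 residual degrees of freedom.

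For MYDGF against aristolochic acid, the 3 autophagy initiation calls became 6 with DESeq2 size factors, 5 by the Wald test of DESeq2, and 0 without a filter or with the 6 libraries alone, where edgeR gave 5 and 4 at an unadjusted p under 0.05. The 2 ATG8 calls became 1 without a filter and 1 with the 6 libraries alone. The cause was not tested. All genes called were 2378 higher and 3028 lower of 18267 with DESeq2 size factors, and 2350 and 2957 by its Wald test. They were 2119 and 2332 of 37792 without a filter, and 2056 and 2220 of 17643 with the 6 libraries alone. DESeq2 size factors and library totals each gave 3 higher and 2 lower members in place of 3 and 1. Leaving out 1 library gave 4 to 6 member calls with aristolochic acid, 4 to 5 with MYDGF added and 5 to 6 for MYDGF against untreated. With MYDGF added it gave 2 to 7 further mitophagy factors, 1 to 7 autophagy initiation genes and 0 to 5 of the ATG8 list. All genes called moved too. With aristolochic acid they were 4988 higher and 4948 lower of 18607 without aristolochic acid 4, and 5997 and 5350 of 19044 without aristolochic acid 1. With MYDGF added they were 1826 and 1678 of 19000 without MYDGF 3, and 3152 and 3462 without aristolochic acid 1. For MYDGF against untreated they were 4322 and 3572 of 18985 without MYDGF 1, and 5427 and 4604 without aristolochic acid 1. Changes of sign were seen for genes that did not pass: FUNDC1 with MYDGF added ran from -0.21 to 0.15 with 1 library left out, and was 0.12 without aristolochic acid 4, 0.02 without aristolochic acid 6 and 0.15 without MYDGF 4. PHB2 there was -0.0048 with the block and ran from -0.04 (without MYDGF 3) to 0.21, and CALCOCO2 for MYDGF against untreated ran from -0.06 to 0.03 (without MYDGF 1). Of the genes that the naming rule selects from the other lists, whether or not the text names them, 27 of 30 with aristolochic acid, 8 of 18 with MYDGF added and 26 of 29 for MYDGF against untreated kept their call in every setting but the block. FUNDC1 had the fewest counts of the 10, and the part of depth in its spread was not tested.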
